A study of Mus musculus with 8 samples.

Results

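Regions of open chromatin that lay deep inside genes and carried an ATAC-seq peak in every library were examined in mouse retinal ganglion cells (RGCs), the neurons whose axons form the optic nerve. Peaks of 8 deposited lists were merged into 1 region wherever they shared at least 1 bp on chromosomes 1 to 19, which gave 186387 regions. Of these, 68278 (36.6%) had a peak in all 8 lists and are called shared. Among the shared regions, 27043 lay inside a protein-coding gene and more than 5 kb from both ends of every protein-coding gene (RefSeq, GRCm38, the build of all coordinates here). Members were thus chosen by the presence of called peaks and by position, not by height. These constitutive gene-body regions made up 39.6% of the shared regions and 14.5% of all merged regions, and spanned 25.6 Mb in total. For comparison, 20303 shared regions lay within 5 kb of a gene end and 20932 lay outside genes and over 5 kb from any gene end.

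ATAC-seq uses a transposase to insert sequencing adapters into open DNA. RGCs of C57BL/6J mice received AAV2 by injection into the eye, carrying control GFP in 3 samples, Ezh2 in 3 and Ezh2-Y726D, a form of Ezh2 without catalytic activity, in 2. The optic nerve was crushed (ONC) in all groups 2 weeks after the virus, sorting followed 3 days later, and 50000 cells went into each library. Sorting used the surface protein CD90.2, which is also found on T cells. The paper states that this injection reached most RGCs in earlier work, and that AAV2 also transduces other retinal cells. Each library can thus mix transduced and other cells. Fewer cells with an open region cannot be told apart from a less open region per cell. The labels do not say whether replicates came from separate animals, so p-values measure the spread between these samples.

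Open chromatin inside a gene can be an enhancer of the host gene, an enhancer of another gene, an alternative promoter or a site bound by structural proteins such as CTCF. Long neuronal genes are known for many such elements in their introns. Ezh2 is the catalytic subunit of Polycomb repressive complex 2, which methylates histone H3 at lysine 27, a mark of silenced chromatin that is found mainly over promoters and CpG-rich DNA.

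The lists held 112939 to 135895 peaks over all chromosomes, and sequencing depth is unknown because they hold no read numbers. Replicates of 1 group resembled each other more than samples of different groups, with Spearman's rho of the fold ranks over shared regions between 0.845 and 0.881 for 7 pairs within groups and between 0.656 and 0.799 for 21 pairs between groups, given as a description. Of 30 genes chosen for RGC identity, 28 to 30 had a peak within the gene or 1 kb of its ends in each list, but all 26 rod and all 25 Muller glia genes also had one in every list, so peak presence did not single out RGCs. Marker genes of white blood cells moved with 1 group. Of 27 microglia and macrophage genes, 24 to 27 had a peak in the GFP and Ezh2 lists and 17 in each Ezh2-Y726D list. Of 36 T and NK lymphocyte genes, 34 to 36 had a peak in the GFP and Ezh2 lists and 28 and 29 in the Ezh2-Y726D lists. The part of such cells in the differences of Ezh2-Y726D described here was not tested.

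Some gene-body regions covered a start site of their host gene, as RefSeq lists it in GRCm38.p6, and sequences are shown for 6 of these. They are not the members that differed most between groups, which are named further below. Each is the region with the largest called difference in 1 direction of 1 comparison among regions that hold such a start (values below), and each window runs from 250 bases before to 50 bases after the start, 5′ to 3′ on the strand of the gene. Capitals mark matches, on either strand, to an AP-1 motif (TGANTCA), an E-box (CAGCTG), a homeodomain motif (TAATTA), a GC box (CCGCCC), an octamer (ATGCAAAT) or a TATA box (TATAAA).
Ppfibp2 chr7:107665228-107665527 + strand: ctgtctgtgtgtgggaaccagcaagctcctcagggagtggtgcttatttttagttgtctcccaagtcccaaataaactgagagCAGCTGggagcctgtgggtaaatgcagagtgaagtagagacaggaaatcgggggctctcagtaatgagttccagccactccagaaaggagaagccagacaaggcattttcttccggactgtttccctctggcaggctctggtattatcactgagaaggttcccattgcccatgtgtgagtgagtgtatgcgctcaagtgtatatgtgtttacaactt
Mef2c chr13:83573357-83573656 + strand: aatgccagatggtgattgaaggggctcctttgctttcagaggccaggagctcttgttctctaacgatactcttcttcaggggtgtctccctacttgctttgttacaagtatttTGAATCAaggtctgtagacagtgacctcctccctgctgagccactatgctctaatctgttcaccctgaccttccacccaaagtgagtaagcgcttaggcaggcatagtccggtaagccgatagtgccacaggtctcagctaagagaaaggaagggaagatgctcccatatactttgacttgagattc
Cmklr1 chr5:113643554-113643853 - strand: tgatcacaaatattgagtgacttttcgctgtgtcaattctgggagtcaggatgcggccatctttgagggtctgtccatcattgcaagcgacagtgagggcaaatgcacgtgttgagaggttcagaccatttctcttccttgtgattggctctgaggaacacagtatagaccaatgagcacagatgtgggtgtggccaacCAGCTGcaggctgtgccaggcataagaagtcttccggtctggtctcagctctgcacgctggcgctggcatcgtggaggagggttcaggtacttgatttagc
Trim30a chr7:104446076-104446375 - strand: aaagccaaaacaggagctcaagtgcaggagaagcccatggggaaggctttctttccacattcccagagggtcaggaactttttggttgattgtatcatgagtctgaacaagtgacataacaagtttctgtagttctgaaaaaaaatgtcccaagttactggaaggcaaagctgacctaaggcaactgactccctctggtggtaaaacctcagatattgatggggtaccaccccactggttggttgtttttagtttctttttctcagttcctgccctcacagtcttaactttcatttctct
Mrtfa chr15:81104998-81105297 - strand: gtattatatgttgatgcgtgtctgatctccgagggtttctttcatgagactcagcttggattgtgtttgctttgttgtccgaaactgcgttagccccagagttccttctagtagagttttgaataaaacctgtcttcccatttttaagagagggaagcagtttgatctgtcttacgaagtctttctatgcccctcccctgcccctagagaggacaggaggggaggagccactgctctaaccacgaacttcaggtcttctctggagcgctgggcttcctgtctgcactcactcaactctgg
Akna chr4:63403396-63403695 - strand: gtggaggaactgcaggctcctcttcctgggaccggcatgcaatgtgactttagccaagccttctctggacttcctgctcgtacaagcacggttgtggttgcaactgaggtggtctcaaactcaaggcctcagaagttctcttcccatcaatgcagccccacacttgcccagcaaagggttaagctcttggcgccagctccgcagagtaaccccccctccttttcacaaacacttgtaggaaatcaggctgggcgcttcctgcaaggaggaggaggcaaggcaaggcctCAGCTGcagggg
An E-box was found in the Ppfibp2, Cmklr1 and Akna windows and an AP-1 motif in the Mef2c window, whereas the Trim30a and Mrtfa windows held none of the 6 motifs. Over all 31396 listed start windows of this length, 16.3% held the E-box, 7.84% the AP-1 motif, 5.27% the homeodomain motif, 36.0% the GC box, 1.75% the octamer and 13.6% the TATA box. A match is a description of the letters and not evidence of binding.

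The openness of a region was measured by the deposited fold of its highest peak, which divides the reads piled up at its summit by the background around it. To compare libraries, each fold was given as its percentile among all peaks of the same list. The members had a median width of 878 bp (5th to 95th percentile 502 to 1623 bp), against 1182 bp at gene ends and 872 bp outside genes. Averaged over the 8 lists, their percentile had a median of 59.9 with quartiles of 43.2 and 75.3, below the medians of 78.1 at gene ends and 69.4 outside genes. Only 1684 of them (6.23%) averaged above the 90th percentile, against 29.5% of the shared regions at gene ends.

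Presence in all 8 lists was the rule of selection and is described without a test. Inside gene bodies 31.7% of 85351 merged regions were shared, against 56.3% of those at gene ends and 32.2% of those outside genes. Gene-body regions with a peak in 7 lists, which just missed the rule, numbered 6262 and had a median percentile of 37.0 over the peaks they had, against 62.0 for the members and 16.1 for regions found in 1 list. At the distance limit, members just inside lay 5001 bp from a gene end in Begain and 5002 bp away in Tbcel, and the 3 shared regions just outside lay 4998 bp away in Pkd2 and 4997 bp away in Tcp11l2 and in the overlapping genes 3110082I17Rik and Gpr146. Percentiles in the Begain region ran from 32.6 to 55.0 and those in the Pkd2 region from 74.7 to 87.1.

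**Figure D1:**
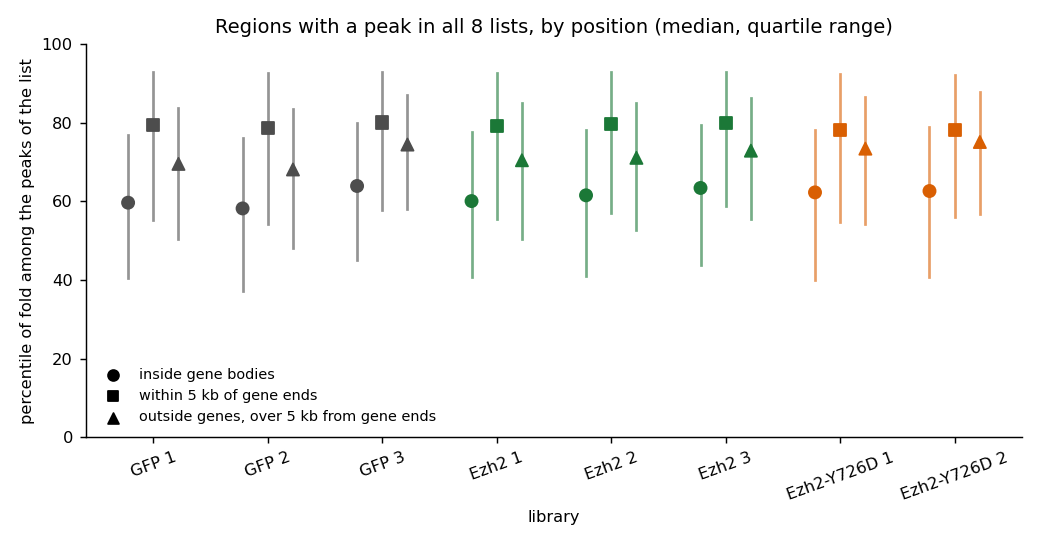
Percentile of the deposited fold (vertical axis) in each of the 8 libraries (horizontal axis) for shared regions in 3 positions; symbols are medians, lines run from the lower to the upper quartile, and colours mark GFP (grey), Ezh2 (green) and Ezh2-Y726D (orange). Medians of gene-body regions sat between 58.2 and 63.9 in all libraries, below those of the other positions.

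The members were spread over 6504 of the 13174 protein-coding genes with room for one, meaning some sequence over 5 kb from every gene end. Their number per gene had a median of 2 among genes with any, reached at least 10 in 681 genes and at least 20 in 188 genes, and those 188 genes held 19.2% of all members. Number and room went together across genes, with Spearman's rho of 0.70 over 13174 genes, a description without a test. Per 100 kb of room there were 3.32 regions on average. Density was 3.18 per 100 kb in genes with up to 20 kb of room, rose to 3.86 between 100 and 200 kb, and was 2.24 in the 206 genes with over 500 kb. Nearly all members (26881) lay in 1 protein-coding gene, and 162 lay in overlapping genes. The annotation used here gives no exons, so exonic and intronic regions were not separated.

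Among the 12 genes with the most members, several encode neuronal adhesion and synaptic proteins. Nrxn3, a neurexin of the presynaptic membrane (chr12:88722701-90334935), held 66 regions, of 194 merged regions in its body. The synaptic scaffold gene Dlg2 (chr7:90476188-92449246) held 55, and the IgLON adhesion genes Lsamp (chr16:39984254-42181679) and Ntm (chr9:28994749-29963269) held 54 and 49. Tenm4, a teneurin of synapse formation (chr7:96171244-96911093), held 48, and Dpp6, a partner of Kv4 potassium channels (chr5:26817357-27727500), held 46. Auts2 (chr5:131437333-132543220), whose protein takes part in a Polycomb repressive complex 1 variant, held 59, and Camta1, a calmodulin-binding transcription factor gene (chr4:151059523-151861768), held 56. Arhgap26, which encodes a GTPase-activating protein (chr18:38601617-39376285), held 46, Ptprn2, a dense-core vesicle gene (chr12:116485695-117278167), held 45, and Frmd4a, a FERM-domain scaffold gene (chr2:4017650-4614043), held 45. Tenm3 tied with these at 45 and was left out by alphabetical order.

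Gse1 stood apart from this group by density. Its body of 353 kb (chr8:120228501-120581383) held 51 regions, or 14.9 per 100 kb of room, while the other 11 genes held from 2.49 (Lsamp) to 7.67 (Frmd4a) per 100 kb. Its regions were also low, with a median percentile of 30.0 against 43.8 (Tenm4) to 65.5 (Arhgap26) in the other 11. None of the 12 genes was called in a test of mean openness in any of the 3 comparisons (described below).

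Among the 976 genes with at least 8 members, the median density was 5.71 per 100 kb. The 8 densest genes were short. Speg, a kinase gene of striated muscle (chr1:75375297-75432320), reached 19.1 per 100 kb with 9 regions, and Cacna1g, which encodes a T-type calcium channel (chr11:94408391-94474400), reached 17.9 with 10. They were followed by Tmem104 (16.3), Dagla, the enzyme that makes the endocannabinoid 2-arachidonoylglycerol (16.1), the sarcosine dehydrogenase gene Sardh (16.0), Ccdc85c (15.6), the reelin receptor gene Lrp8 (15.5) and the axonemal dynein gene Dnaic1 (15.4). Openness in these genes varied widely, and the median percentile of their regions ran from 3.66 in Ccdc85c and 18.03 in Cacna1g to 67.2 in Sardh.

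**Figure D2:**
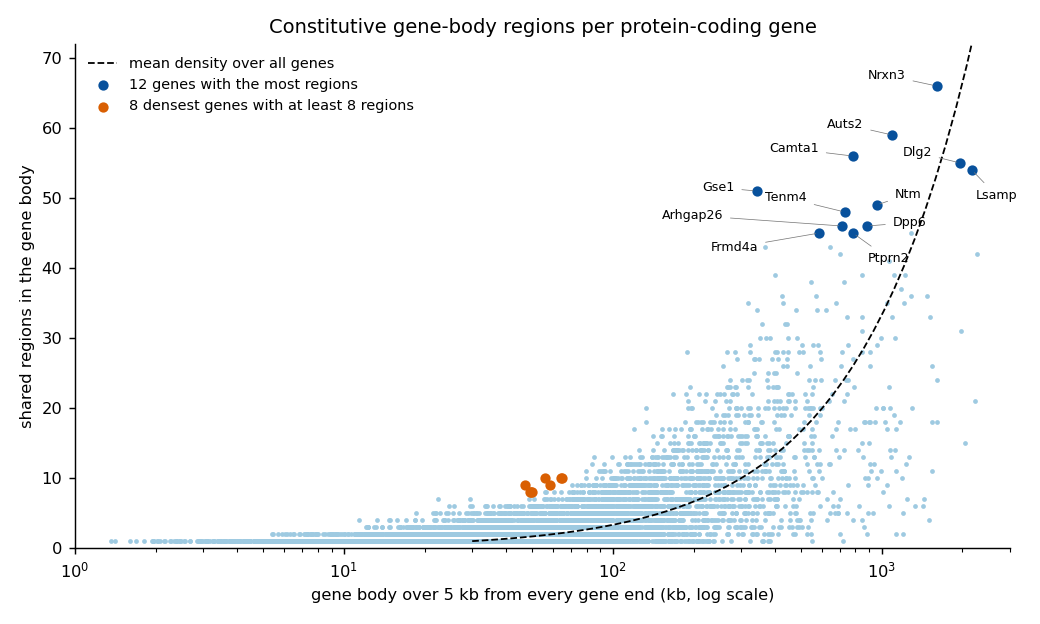
Number of constitutive gene-body regions (vertical axis) against the length of gene body over 5 kb from every gene end (horizontal axis, log scale) for the 6504 protein-coding genes with at least 1; the dashed line is the mean density of 3.32 per 100 kb. The 12 genes with the most regions are named, from Nrxn3 with 66 to Frmd4a and Ptprn2 with 45, and Dlg2 and Lsamp lie below the dashed line.

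The 3 highest members, by mean percentile over all lists, were near the top of every list. A region of 561 bp in Cdk8, a kinase gene of the Mediator complex (chr5:146260892-146261452), one in the gephyrin gene Gphn (chr12:78350774-78351273) and one in Ccdc77 (chr6:120356849-120357854) had percentiles of at least 99.9 in every list. None of these 3 regions was called in any comparison (limma adjusted p, Benjamini-Hochberg, of at least 0.301). Choosing them by their mean over all groups leaves little room for a difference between groups. The absence of calls is therefore no evidence that they are stable.

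Along the gene, with the strand taken from the RefSeq start table, density hardly changed. Over 10438 genes with a known strand and room, 21252 members were placed, with 3.24 per 100 kb before the middle of the gene and 3.41 after it. Of 10 equal parts of the gene, part 1 at the start had the lowest density (2.83) and part 9 the highest (3.53). Median percentile was 57.7 in part 1 and 62.3 in part 10.

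Crowding had a closer relation to openness. The median gap from a member to the nearest other merged region was 2.59 kb. Members with another region within 1 kb (7097) had a median percentile of 50.2, those with the nearest at 2 to 5 kb 60.3, and those with the nearest at 5 to 10 kb 72.1. Over all 27043 members, Spearman's rho of gap and percentile was 0.37, as a description. The densest stretches of 20 kb held 7 members, in Cxxc5, Prkch, Ppargc1b and Sipa1l3, and median percentiles there ranged from 3.00 in Cxxc5 to 47.7 in Ppargc1b. The deposited fold divides by a background taken around the peak, and neighbouring peaks enter that background, whose part in this relation was not tested.

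Close neighbours also differed in opposite directions more often than 2 members taken at large. Among 1054 pairs of consecutive members of 1 gene within 1 kb of each other, 40.9% differed in the same direction between Ezh2 and GFP, where 50.3% would be met if 2 members were drawn at large. From 5 to 20 kb the share was 51.6% of 9855 pairs, and beyond 100 kb it was 52.7% of 507 pairs. In Ezh2-Y726D against GFP the same shares were 40.2%, 51.9% and 53.3%, and in Ezh2 against Ezh2-Y726D 41.7%, 51.8% and 55.4%. These comparisons share samples and are given side by side. Their rank differences had Spearman's rho of -0.28, -0.32 and -0.28 over the 1054 closest pairs. The same background in the fold is shared by such pairs, and its part was not tested.

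**Figure D3:**
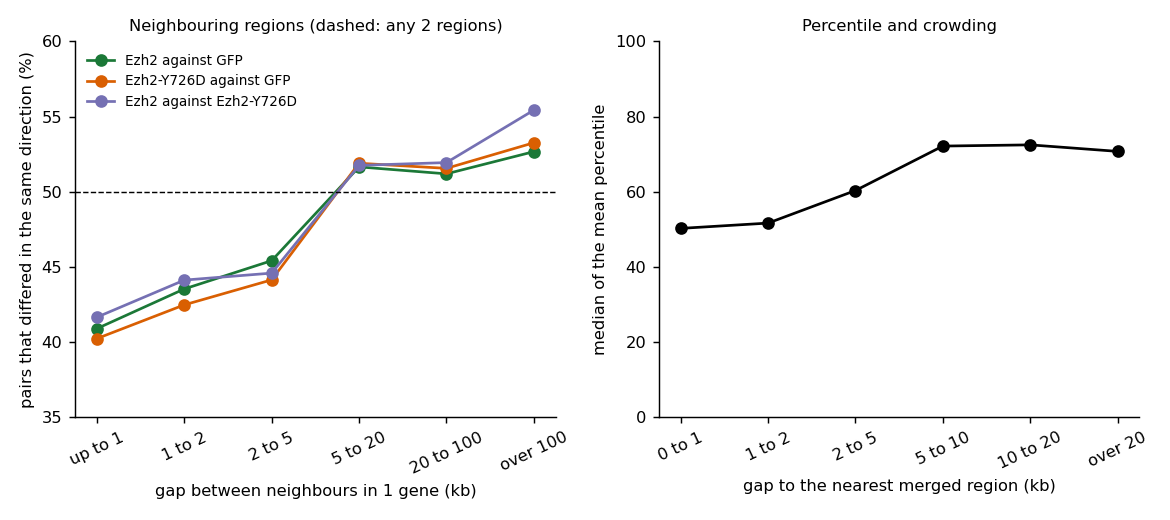
Left, share of neighbouring members of 1 gene whose rank difference had the same sign (vertical axis, percent) by the gap between them (horizontal axis, kb) in the 3 comparisons, with the share for any 2 members dashed; right, median of the mean percentile by the gap to the nearest merged region. Pairs within 1 kb lay between 40.2% and 41.7%, and percentiles rose from 50.2 at gaps under 1 kb to 72.1 at 5 to 10 kb.

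Of 2053 RefSeq starts that lie inside their own gene and over 5 kb from every gene end, 51.0% fell on a region shared by all lists, 9.50% on a region of 1 to 7 lists and 39.5% on no peak. By contrast, 16.6% of 2101 starts of other genes inside a host gene fell on a shared region. Among the members, 853 (3.15%) held a start of the host gene and 230 held only a start of another gene. Regions with a host start were wider (median 1336 against 867 bp) and higher (median percentile 74.4 against 59.5) than the 25960 without a listed start.

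The sequence around these starts differed with openness. In 987 windows of host starts on members the median GC content was 58.7%, against 48.0% in 810 windows without a peak and 62.7% in 12706 windows on shared regions at gene ends. A GC box was found in 51.6%, 11.4% and 68.0% of these windows, and in 36.0% of all listed windows. The TATA box went the other way, with 6.99% on members and 18.02% without a peak. Several starts of 1 gene can lie in 1 region, so these windows overlap and were not tested.

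For the comparisons, each shared region was ranked by fold within its library among all 68278 shared regions, and ranks were turned into normal scores, so that 1 unit is 1 SD of a library's regions. Group means were compared with limma in 1 fit over all 8 samples, and calls needed an adjusted p under 0.05 after Benjamini-Hochberg correction. A member has a peak in every library by the rule, so regions that closed fully in 1 group cannot be among them. Comparisons with GFP share their 3 control samples.

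As a class, the members differed little in rank between groups. Their median rank score was -0.271, -0.274 and -0.280 in the GFP samples, -0.267, -0.267 and -0.270 in the Ezh2 samples, and -0.277 and -0.285 in the Ezh2-Y726D samples. Ezh2 exceeded GFP by 0.0068 and Ezh2-Y726D by 0.012, without overlap between the groups, and exact two-sided permutation p was 0.1 for both, the smallest that these group sizes allow. Ezh2-Y726D differed from GFP by -0.0056 (exact p = 0.4). The share of a list's peaks that lay inside gene bodies was 43.4% ± 0.575 (SD, n = 3) with GFP, 44.1% ± 0.166 (SD, n = 3) with Ezh2 and 43.8% ± 0.402 (SD, n = 2) with Ezh2-Y726D, and exact permutation p was 0.3 for Ezh2 and 0.4 for Ezh2-Y726D, each against GFP, and 0.6 between the forms.

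Between Ezh2 and GFP, 529 members ranked higher with Ezh2 and 803 lower, together 4.93% of the members. Over all shared regions 4.47% were called, with 1.61% higher and 2.86% lower, so the members were close to this background. Gene ends had fewer calls (2.02%) and regions outside genes more (6.27%). Each of the 6 GFP and Ezh2 libraries moved the count of higher members by over 1.5 times when left out, to between 148 (without Ezh2 replicate 3) and 300 (without Ezh2 replicate 2), and the count of lower members was 286 without GFP replicate 3.

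Between Ezh2-Y726D and GFP, 976 members ranked higher with Ezh2-Y726D and 1521 lower, 9.23% of the members, against 8.27% of all shared regions (3.58% higher and 4.7% lower). In Ezh2 against Ezh2-Y726D the counts were 2182 and 1838, or 14.9% of the members against 14.1% of all shared regions (7.09% higher and 7.01% lower). Fewer white blood cell marker genes had a peak in the Ezh2-Y726D lists, as given above. Leaving out Ezh2-Y726D replicate 1 left 87 higher and 319 lower against GFP, and 861 and 558 in Ezh2 against Ezh2-Y726D, with the lone sample of the group then assumed to vary like the others.

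Groups were also compared by overlap. In 3558 members (13.2%) all Ezh2 samples lay above all GFP samples and in 3190 (11.8%) below. Over all shared regions 12% and 12.1% did so. For Ezh2-Y726D against GFP these were 5540 and 5883 members (20.5% and 21.8%, against 19.7% and 21.8% of all shared regions). For Ezh2 against Ezh2-Y726D they were 6877 and 5909 (25.4% and 21.9%, against 25.3% and 22.3%). Groups of 3 and 2 samples allow 10 splits and groups of 3 and 3 allow 20, so the smaller groups separate more easily. The shares of Ezh2 against GFP are therefore not comparable with those of the other comparisons.

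Members that held a host start were called less often, in 1.52%, 2.93% and 6.80% of cases in the 3 comparisons, against 5.06%, 9.46% and 15.2% of members without a listed start. These shares were not tested against each other.

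**Figure D4:**
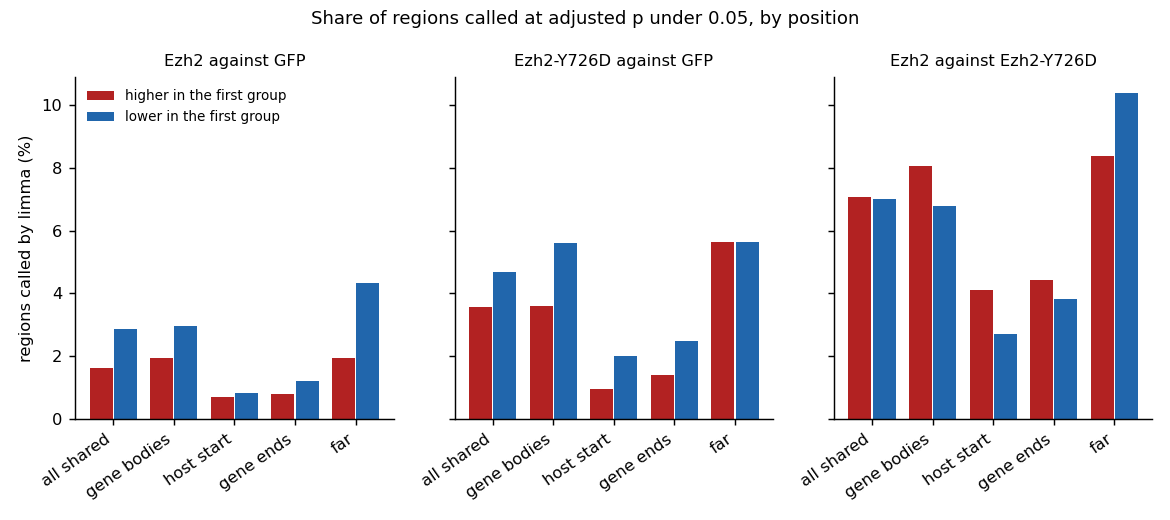
Share of regions called by limma at an adjusted p under 0.05 (vertical axis, percent) for all shared regions, members, members that hold a start of their host gene, gene ends and regions outside genes, split into higher (red) and lower (blue) in the first-named group. Members (gene bodies) reached 2.97% lower in Ezh2 against GFP and 8.07% higher in Ezh2 against Ezh2-Y726D, close to all shared regions.

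Large called gains with Ezh2 over GFP were found in Gatb, Gne and Fam83a. Regions named for the largest differences were taken only from called members without overlap between the groups compared. That separation therefore follows from the choice. In Gne, which encodes the key enzyme of sialic acid synthesis, a region at chr4:44059601-44060437 had percentiles of 28.3, 48.1 and 52.9 with GFP, 91.5, 88.6 and 93.5 with Ezh2, and 49.5 and 48.4 with Ezh2-Y726D. Only the Ezh2 samples were high, and both Ezh2-Y726D samples also lay below all of them. The rank difference from GFP was 1.85 (SE 0.20, limma adjusted p = 0.00529).

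Fam83a had a region (chr15:57995715-57997206) with percentiles of 34.7, 30.5 and 35.8 with GFP, 84.2, 89.4 and 85.3 with Ezh2, and 58.4 and 59.5 with Ezh2-Y726D. Here the Ezh2-Y726D samples stood between the others, and all 3 groups were apart. Ezh2 exceeded GFP by 1.82 (SE 0.16, limma adjusted p = 0.00269) and Ezh2-Y726D exceeded GFP by 0.71 (SE 0.18, limma adjusted p = 0.0359). Gatb, a gene of mitochondrial tRNA charging, gained 1.90 (SE 0.31, limma adjusted p = 0.0136) in a region at chr3:85629643-85630482.

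Falls with Ezh2 were of the same order. A region of Timm44, which encodes a part of the mitochondrial import motor (chr8:4266735-4267964), had percentiles of 92.7, 83.8 and 93.4 with GFP, 35.1, 33.0 and 12.8 with Ezh2, and 32.1 and 52.4 with Ezh2-Y726D. Both Ezh2 forms were low. Ezh2 differed from GFP by -2.31 (SE 0.25, limma adjusted p = 0.00529) and Ezh2-Y726D by -1.85 (SE 0.28, limma adjusted p = 0.00642).

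In Fbxl7, an F-box ubiquitin ligase gene, the 2 forms parted. Its region at chr15:26837024-26837750 had 92.6, 85.9 and 98.1 with GFP, 45.7, 48.4 and 31.9 with Ezh2, and 96.2 and 96.5 with Ezh2-Y726D. Ezh2 differed by -2.13 from GFP and by -2.39 from Ezh2-Y726D (limma adjusted p = 0.00658 and 0.0015), and the difference between Ezh2-Y726D and GFP was 0.27 (SE 0.30, limma adjusted p = 0.633). The other 2 falls of the named set were in the tubulin glycylase gene Ttll3 (chr6:113404440-113405241, -2.19) and in Sh3yl1 (chr12:30925753-30926315, -2.17), where Ezh2-Y726D also lay below GFP by -1.34 and -1.78 on the rank scale (limma adjusted p = 0.0495 and 0.0147).

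The 4 largest called gains with Ezh2-Y726D over GFP were in Dnah11, B4galt1, Iqcm and Mknk1. In the axonemal dynein gene Dnah11 (chr12:118130893-118131687) percentiles were 21.5, 16.3 and 35.8 with GFP, 54.6, 38.8 and 58.9 with Ezh2, and 82.9 and 91.6 with Ezh2-Y726D. All Ezh2-Y726D samples lay above all others (2.14 over GFP, SE 0.24, limma adjusted p = 0.00235). The galactosyltransferase gene B4galt1 (chr4:40819990-40820569) went from 3.17, 2.99 and 3.53 with GFP to 63.0 and 65.6 with Ezh2-Y726D (2.11, SE 0.30, limma adjusted p = 0.00479), with 3.30, 15.0 and 34.6 with Ezh2. Iqcm (chr8:75479718-75480348) gained 2.06 (SE 0.21, limma adjusted p = 0.00224). Mknk1, a kinase gene of translation control (chr4:115869408-115870103), also gained 2.06, but with an SE of 0.43, and the call was lost without either Ezh2-Y726D sample, GFP replicate 1 or GFP replicate 3 (limma adjusted p = 0.0507 to 0.106), and when regions were ranked by −log10 p (0.0730).

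Cops4, a gene of the COP9 signalosome, showed the largest fall with Ezh2-Y726D. Percentiles of its region at chr5:100526089-100526960 were 96.1, 97.0 and 95.03 with GFP, 99.2, 99.1 and 99.8 with Ezh2, and 17.3 and 44.0 with Ezh2-Y726D. The Ezh2-Y726D samples alone were low. The rank difference was -2.69 from GFP (SE 0.25, limma adjusted p = 0.00192), and Ezh2 exceeded Ezh2-Y726D by 3.52 (SE 0.25, limma adjusted p = 0.000309).

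Gnptab, which encodes an enzyme that tags lysosomal proteins with mannose 6-phosphate, had a region (chr10:88405570-88406275) at 80.5, 87.3 and 86.9 with GFP, 90.1, 92.0 and 93.2 with Ezh2, and 10.3 and 10.7 with Ezh2-Y726D. Again only Ezh2-Y726D was low (-2.48 from GFP, SE 0.18, limma adjusted p = 0.00122). Bmerb1 (chr16:14088013-14088926, -2.54) behaved alike, with 97.1, 93.2 and 99.3 with GFP, 99.6, 99.0 and 99.8 with Ezh2, and 58.4 and 28.1 with Ezh2-Y726D (limma adjusted p = 0.00381). In the cAMP phosphodiesterase gene Pde8b (chr13:95237308-95237933) both forms were below GFP, by -2.12 for Ezh2 and -2.65 for Ezh2-Y726D, and the latter call was lost without Ezh2-Y726D replicate 1 (limma adjusted p = 0.124) and with ranks of −log10 p (0.0581).

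Between the 2 forms, Psd3, an Arf exchange factor gene (chr8:68156996-68157662), ranked higher with Ezh2 by 3.42 (SE 0.30, limma adjusted p = 0.000518), and Kansl1, a gene of the NSL histone acetyltransferase complex (chr11:104424656-104425831), by 3.21 (SE 0.33, limma adjusted p = 0.000784). The Kansl1 region had 78.5, 86.1 and 90.4 with GFP, 96.5, 96.0 and 94.95 with Ezh2, and 2.04 and 33.9 with Ezh2-Y726D. GFP and Ezh2 were high and Ezh2-Y726D low.

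In the other direction, 3 of the 4 regions that were lowest with Ezh2 relative to Ezh2-Y726D lay on opposite sides of GFP. Tnfrsf1b, which encodes TNF receptor 2 (chr4:145239052-145240004), had 51.2, 57.4 and 46.6 with GFP, 6.66, 20.5 and 13.6 with Ezh2, and 86.4 and 90.7 with Ezh2-Y726D. The 3 groups did not overlap, and Ezh2 differed from GFP by -1.21 (SE 0.20, limma adjusted p = 0.0148) and Ezh2-Y726D by 1.38 (SE 0.23, limma adjusted p = 0.00822).

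Litaf, a lysosomal membrane protein gene induced by lipopolysaccharide (chr16:10973899-10974586), had 50.5, 54.7 and 53.7 with GFP, 3.79, 20.8 and 5.20 with Ezh2, and 83.2 and 86.1 with Ezh2-Y726D. Its groups were likewise apart, with differences from GFP of -1.45 and 1.12 (limma adjusted p = 0.0105 and 0.0231). Mctp2, a gene of a calcium-binding C2 domain protein (chr7:72271281-72272121), differed from GFP by -1.66 and 1.12 (limma adjusted p = 0.00718 and 0.0214). Cntnap5b, a contactin-associated protein gene (chr1:100297988-100298685), was 2.47 lower with Ezh2 than with Ezh2-Y726D (limma adjusted p = 0.00298).

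**Figure D5:**
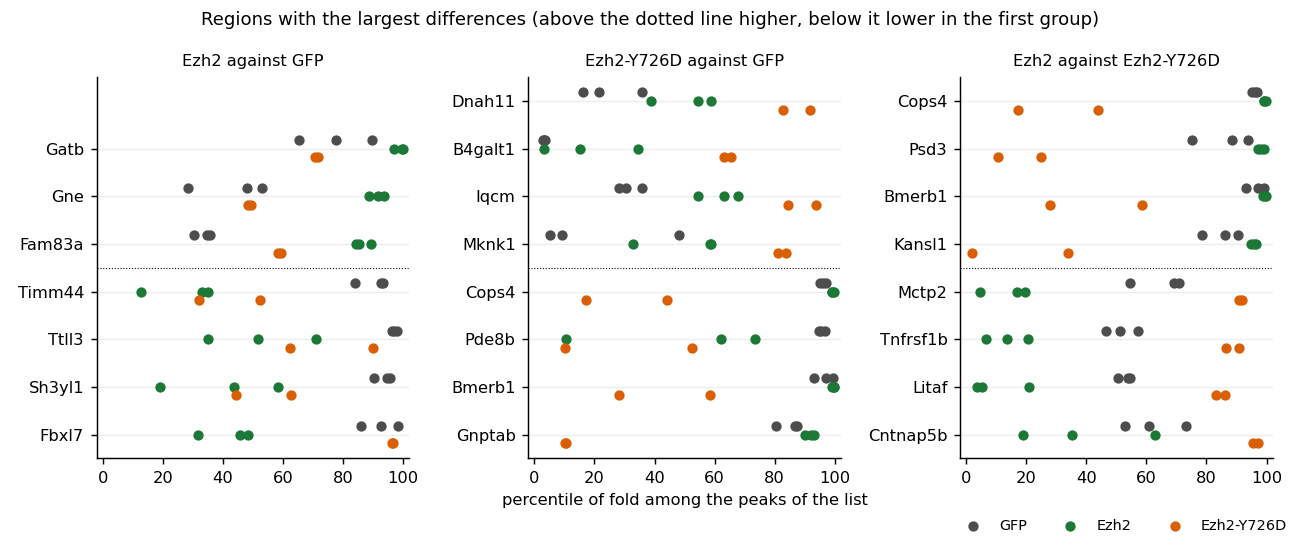
Percentile of the deposited fold in each library (points; horizontal axis) for the regions with the largest called differences in each of the 3 comparisons, named by host gene; those above the dotted line were higher (3 in Ezh2 against GFP, 4 in the others) and the 4 below it lower in the first-named group. In Cops4, Bmerb1, Psd3, Kansl1 and Gnptab the Ezh2-Y726D points lie below all others.

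The regions with a start window shown above moved by 1.18 to 2.10 in size. Ppfibp2, a liprin gene, ranked higher with Ezh2 than with GFP (16.6, 18.03 and 27.5 with GFP, 58.3, 64.4 and 63.3 with Ezh2, 19.5 and 28.4 with Ezh2-Y726D), by 1.18 (SE 0.15, limma adjusted p = 0.00718). Its Ezh2 samples alone were high. Mef2c, a transcription factor gene of neurons and muscle, was lower with Ezh2 (73.8, 73.2 and 73.5 against 23.3, 34.8 and 40.0, a difference of -1.28, limma adjusted p = 0.00658), and Ezh2-Y726D stood between at 50.7 and 52.7 (-0.75 from GFP, limma adjusted p = 0.0318).

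Cmklr1, the chemerin receptor gene of macrophages and other cells, was higher with Ezh2-Y726D (88.8 and 96.3) than with GFP (51.6, 59.1 and 63.6), by 1.51 (SE 0.22, limma adjusted p = 0.00552). Trim30a, an interferon-induced gene, was lower with Ezh2-Y726D (44.5 and 39.2 against 81.9, 86.3 and 87.0 with GFP, -1.56, limma adjusted p = 0.00231). Both genes are known from immune cells, and their regions moved in opposite directions. Fewer white blood cell marker genes had a peak in the Ezh2-Y726D lists, and the part of such cells was not tested.

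Mrtfa, a coactivator gene of serum response factor, ranked 2.10 higher with Ezh2 (79.0, 81.3 and 84.5) than with Ezh2-Y726D (11.4 and 18.4), with GFP at 68.6, 67.8 and 65.4 (limma adjusted p = 0.000518). Akna, a centrosomal protein gene studied in lymphocytes and neural progenitors, was 2.04 lower with Ezh2 (8.27, 5.44 and 8.64) than with Ezh2-Y726D (72.2 and 70.8), with GFP at 16.9, 32.5 and 27.2 (limma adjusted p = 0.000676). In both, the 3 groups were without overlap.

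To ask whether regions of 1 gene moved together, the scores of a gene's members were averaged per sample in the 2900 genes with at least 3 members and fitted in the same way. With Ezh2 against GFP, 39 genes were higher (1.34%) and 61 lower (2.1%), 3.45% in all. With Ezh2-Y726D against GFP there were 108 (3.72%) and 98 (3.38%), 7.1% in all, and with Ezh2 against Ezh2-Y726D 254 (8.76%) and 252 (8.69%), 17.4% in all. Of the 681 genes with at least 10 members, 4, 19 and 63 were called. These counts fell whichever sample of the compared groups was left out. A fit with fewer samples also calls less readily, so the falls single out no library. In Ezh2 against GFP there were 9 higher genes without GFP replicate 2 or Ezh2 replicate 3. Without Ezh2 replicate 1 there were 17 lower genes. Each GFP and Ezh2 library left out moved both counts by over 1.5 times. Without Ezh2-Y726D replicate 1 there were 13 and 12 genes against GFP, and 77 and 76 between the forms.

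Among genes lower with Ezh2, Deptor, which encodes an inhibitor of mTOR, had 7 members with mean percentiles of 55.8, 61.4 and 66.5 with GFP, 31.4, 40.6 and 34.8 with Ezh2, and 64.5 and 68.3 with Ezh2-Y726D. None of its 7 members had a positive difference, and 2 were called lower singly. The mean difference from GFP was -0.87 (SE 0.10, limma adjusted p = 0.00694) and that from Ezh2-Y726D -1.04 (SE 0.11, limma adjusted p = 0.00112). Sema3e, a secreted semaphorin of axon guidance with 3 members, had 69.9, 74.1 and 87.6 with GFP, 51.9, 45.7 and 48.1 with Ezh2, and 82.7 and 84.6 with Ezh2-Y726D (-0.96 from GFP, limma adjusted p = 0.00792). Only Ezh2 was low, and against GFP 1 of the 3 members was higher while 2 were called lower singly. Tmed10, a cargo receptor gene of the secretory pathway, also fell with Ezh2 (-0.91, limma adjusted p = 0.00792).

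The genes with the largest gains with Ezh2 were Fam193a (5 members, 0.76), the lipin gene Lpin2 (4 members, 0.73) and the deubiquitinase gene Usp33 (3 members, 0.67), with limma adjusted p of 0.0183, 0.0224 and 0.0182. Of their members, 5 of 5, 4 of 4 and 2 of 3 were higher with Ezh2 than with GFP. Without Ezh2 replicate 3, limma adjusted p was 0.0504, 0.0667 and 0.0564. The call of Fam193a was also lost without GFP replicate 1 (0.05005) or 2 (0.0569), that of Lpin2 without GFP replicate 3 (0.0547) or Ezh2 replicate 1 (0.0678), and that of Usp33 without GFP replicate 3 (0.0510), all by limma.

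With Ezh2-Y726D, the cAMP-responsive transcription factor gene Creb5 was lower. Its 8 members had mean percentiles of 79.3, 75.4 and 81.7 with GFP, 78.8, 75.7 and 79.4 with Ezh2, and 55.6 and 56.3 with Ezh2-Y726D. GFP and Ezh2 overlapped, and Ezh2-Y726D lay below both (-0.85 from GFP, SE 0.09, limma adjusted p = 0.00188). Rpa1, a gene of single-stranded DNA binding protein A, had 52.9, 47.0 and 57.6 with GFP, 73.3, 71.7 and 70.6 with Ezh2, and 21.7 and 15.8 with Ezh2-Y726D. Its Ezh2 samples were above GFP by 0.62 and its Ezh2-Y726D samples below by -1.11 (limma adjusted p = 0.008 and 0.00148). Hibadh, a valine catabolism gene, fell with both forms (-0.50 and -0.88, limma adjusted p = 0.0238 and 0.00247).

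Higher with Ezh2-Y726D than with GFP were Wdr59, a gene of the GATOR2 complex (1.17), the deubiquitinase gene Otulin (1.01) and the prolactin receptor gene Prlr (0.98), with limma adjusted p of 0.00233, 0.00373 and 0.00889. The call of Prlr was lost without Ezh2-Y726D replicate 2 (limma adjusted p = 0.0743). Ezh2 exceeded Ezh2-Y726D in Rpa1 (1.73, limma adjusted p = 1.64e-05), the membrane progestin receptor gene Paqr8 (0.96) and Bmerb1 (0.92). It was lower in Sema3e (-1.18), the matrix protein gene Abi3bp (-1.14) and Tmed10 (-1.13). Of the 4 members of Bmerb1, 3 were higher with Ezh2 than with Ezh2-Y726D and only 1 was called singly. That 1 is the region named above, with a difference of 3.24, so the mean of Bmerb1 is no separate result.

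Some genes with 10 or more members had a called mean difference with most members on 1 side. These were chosen after their values were seen, so the member counts by direction follow in part from that choice. Nav3, a microtubule-associated gene of growing neurites with 17 members, had mean percentiles of 53.5, 49.9 and 55.5 with GFP, 60.6, 57.3 and 68.3 with Ezh2, and 69.5 and 73.5 with Ezh2-Y726D. Of its members, 15 were higher with Ezh2-Y726D than with GFP and 5 were called singly (mean difference 0.65, SE 0.11, limma adjusted p = 0.00889). Sorcs3, a neuronal sorting receptor gene, was higher with Ezh2-Y726D in 11 of 12 members, with 3 called singly (0.60, limma adjusted p = 0.00889).

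The RNA-binding protein gene Celf4, with 28 members, went down with Ezh2-Y726D. It had 34.4, 36.0 and 36.7 with GFP, 33.8, 34.9 and 37.8 with Ezh2, and 20.7 and 22.5 with Ezh2-Y726D, and 3 of its 28 members were higher than with GFP (-0.48, SE 0.09, limma adjusted p = 0.0138). Ptpre, a receptor-type phosphatase gene, was lower in all 10 members, of which only 1 was called singly (-0.58, SE 0.09, limma adjusted p = 0.00568). In Vps13d, a lipid transfer protein gene, all 14 members were lower with Ezh2 than with Ezh2-Y726D, and 4 were called singly (-0.53, SE 0.09, limma adjusted p = 0.00398). Myrip, a gene of melanosome and vesicle transport with 11 members, was lower with Ezh2 than with GFP (-0.53, SE 0.09, limma adjusted p = 0.0139), in 10 of 11 members.

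Gene groups chosen for the tissue and the treatment were described by counts. Over all members the median rank difference was 0.03 for Ezh2 against GFP, 0.00 for Ezh2-Y726D against GFP and 0.03 for Ezh2 against Ezh2-Y726D, and the lists are set beside these values and the called shares above. Axon guidance genes held 337 members in 39 genes, led by Robo2 (26), Robo1 (20) and Plxna4 (19). Of these, 12 were higher and 7 lower with Ezh2 against GFP, 13 and 14 with Ezh2-Y726D against GFP, and 28 and 21 between the forms. The called shares were 5.64%, 8.01% and 14.5%, against 4.47%, 8.27% and 14.1% of all shared regions. Median differences of these members were 0.12, 0.08 and 0.01.

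Synaptic adhesion was the largest list, with 933 members in 47 genes and calls of 16 higher and 28 lower with Ezh2, 35 and 36 with Ezh2-Y726D and 63 and 56 between the forms. Voltage-gated ion channel genes held 371, most in the BK potassium channel gene Kcnma1 (42), Cacna1d (26) and Cacna2d3 (23). They had 6 higher and 7 lower with Ezh2, 14 and 26 with Ezh2-Y726D, and 36 and 19 between the forms. In Kcnma1 alone, 6 of 42 members were higher and 0 lower with Ezh2 than with Ezh2-Y726D. Over all shared regions 7.09% were higher and 7.01% lower there, 14.1% in all. Receptor genes for glutamate, GABA and glycine held 259, led by Gabbr2 (35), Grid1 (29) and Grik3 (17), with calls of 5 and 9, 17 and 11, and 20 and 23 in the same order. MAP kinase, cAMP and calcium signalling genes held 653, with Dlg2 (55), Prkg1 (37) and Pde4d (36) in front, and calls of 8 and 14, 22 and 32, and 51 and 32.

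The regeneration-associated list held 107 members, led by the doublecortin-like kinase gene Dclk1 (20), Igf1r (20) and the TrkB gene Ntrk2 (18), with 1 higher and 6 lower with Ezh2, 2 and 3 with Ezh2-Y726D, and 8 and 7 between the forms. Axon growth inhibitors and their receptors held 128, led by the tenascin gene Tnr (20), Cacna2d2 (17) and Lingo1 (14). Their calls were 4 and 3, 2 and 10, and 15 and 6, with median differences of 0.06, -0.07 and 0.21. Cacna2d2, a calcium channel subunit gene known to limit axon regrowth, had 17 members at mean percentiles of 31.4, 32.3 and 38.3 with GFP, 34.2, 33.1 and 35.8 with Ezh2, and 23.3 and 22.4 with Ezh2-Y726D. Its Ezh2-Y726D samples lay below the rest (-0.40 from GFP, SE 0.09, limma adjusted p = 0.0256), while Ezh2 and GFP overlapped (-0.06, SE 0.08, limma adjusted p = 0.707).

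Polycomb and chromatin regulator genes held 220 members, led by Auts2 (59), the BAF subunit gene Arid1b (34) and Hdac9 (18), with calls of 4 and 9, 6 and 17, and 26 and 14. Of the 59 members of Auts2, 0 were called in Ezh2 against GFP. With Ezh2-Y726D against GFP 2 were higher and 5 lower, and between the forms 8 were higher and 2 lower. Over all shared regions 3.58% were higher and 4.7% lower with Ezh2-Y726D, and 7.09% and 7.01% between the forms. The mean over the members of Auts2 was not called in any comparison, as given above. Genes of RGC identity held 36 members in 10 genes, led by Ebf3 (9), the growth cone gene Gap43 (6) and Ebf1 (5), with 0 and 2, 1 and 0, and 0 and 3 calls. All 6 members of Gap43 went without a call in the 3 comparisons. So few regions would often have no call at the shares of all shared regions, so this is no evidence of stability. The called shares were 5.91%, 10.5% and 18.2% for Polycomb and chromatin regulator genes and 5.56%, 2.78% and 8.33% for RGC identity genes. All shared regions had 4.47%, 8.27% and 14.1%.

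Among the lists of other retinal cells, rod genes held 32 members, with Abca4 (9), Esrrb (6) and Rp1 (4) in front and calls of 0 and 0, 3 and 4, and 6 and 1. In Abca4, the flippase gene of photoreceptors, 3 members were lower with Ezh2-Y726D than with GFP. Bipolar cell genes held 57 (Prkca 28, Grik1 7, Trpm1 7) with 0 and 4, 3 and 2, and 9 and 6. Amacrine cell genes held 90 (Dab1 39, Tcf4 25, Meis2 8) with 2 and 5, 1 and 3, and 10 and 7. Muller glia genes held 50 (Nfia 20, Nfib 10, Slc6a11 6) with 0 and 4, 0 and 2, and 4 and 5. Called shares in Ezh2 against Ezh2-Y726D were 21.9% (rod), 26.3% (bipolar), 18.9% (amacrine) and 18% (Muller glia), against 14.1% of all shared regions. Against GFP they were 0%, 7.02%, 7.78% and 8% with Ezh2 and 21.9%, 8.77%, 4.44% and 4% with Ezh2-Y726D, in the same order. All shared regions had 4.47% and 8.27% there.

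White blood cell lists were called most often between the forms. Microglia and macrophage genes held 33 members (Runx1 7, Mertk 5, Apbb1ip 4), with 0 and 1, 5 and 5, and 5 and 8 calls, so 39.4% were called in Ezh2 against Ezh2-Y726D. T and NK lymphocyte genes held 66 (Bach2 27, Bcl11b 7, Cd247 5), with 2 and 4, 4 and 2, and 6 and 14, or 30.3% in that comparison. All shared regions had 14.1% called there. Median differences between the forms were -0.29 and -0.13 in these lists, so these members leaned lower with Ezh2 than with Ezh2-Y726D. In Ezh2-Y726D against GFP the called shares were 30.3% and 9.09%, against 8.27% of all shared regions.

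Ezh2 itself and Slc6a13, one of the genes that the study followed up, each held 1 member. The region in Ezh2 (chr6:47577498-47578735) had percentiles of 73.5, 49.7 and 68.2 with GFP, 65.4, 28.1 and 44.6 with Ezh2, and 38.7 and 33.9 with Ezh2-Y726D. Its GFP and Ezh2 samples overlapped, and limma adjusted p was 0.298, 0.124 and 0.584 in the 3 comparisons. Inside the same gene, 3 further regions, which are not members, had a peak in all 3 Ezh2 lists and in no GFP or Ezh2-Y726D list, the highest of them (chr6:47545596-47545992) at 64.9, 79.2 and 76.9. That pattern was met in 2.01% of all gene-body regions. Peak lists do not tell the gene in the genome from the copy carried by the virus. In Slc6a13, which encodes GABA transporter 2, the region (chr6:121329547-121330485) had 28.8, 3.12 and 45.8 with GFP, 32.0, 34.3 and 26.7 with Ezh2, and 35.1 and 41.5 with Ezh2-Y726D, with limma adjusted p of 0.695, 0.413 and 0.706.

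Hairpins of 23 microRNAs listed by RefSeq lay on members. The regions of 4 were called in at least 1 comparison. Of all shared regions, 4.47%, 8.27% and 14.1% were called in the single comparisons, so no excess among microRNA regions is claimed. The mature sequences of these 4 are shown, with the seed (bases 2 to 8) in capitals.
mmu-miR-6928-5p: aGGGGAUUugcauggacugcacu
mmu-miR-6928-3p: aAGCUGUUccuguacucuccag
mmu-miR-6403: gCAAAGGCgcuguuucccagug
mmu-miR-3154: cAGAAGGGgagucgggagcgga
mmu-miR-6387: uGGAAUGGcuucccuuguguau
No 2 of these shared a seed. The region of Mir6928 in the V-ATPase gene Atp6v0a1 (chr11:101030000-101030700) had 94.1, 97.4 and 96.6 with GFP, 95.8, 94.5 and 94.9 with Ezh2, and 68.8 and 83.8 with Ezh2-Y726D (-1.27 from GFP, SE 0.22, limma adjusted p = 0.0103). Its Ezh2-Y726D samples were the lowest. The region of Mir6403 in Man1c1 (chr4:134567455-134568211) was lower with Ezh2 than with Ezh2-Y726D (-0.68, limma adjusted p = 0.0407), and that of miR-3154 in the dynamin gene Dnm1 (chr2:32317438-32318510) was higher (0.98, limma adjusted p = 0.0289). Mir6387 in Trib2 (chr12:15800235-15801419) had 1.83, 0.600 and 1.98 with GFP against 39.7 and 8.40 with Ezh2-Y726D (1.27, limma adjusted p = 0.0347), with the 2 Ezh2-Y726D samples far apart. Openness of DNA at a hairpin is no measure of the microRNA.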

How the data were processed

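ATAC-seq was done on sorted mouse RGCs in 8 samples, 3 with GFP, 3 with Ezh2 and 2 with Ezh2-Y726D. The submitters' processing notes name cutadapt, Bowtie2, SAMtools, Picard, MACS2, deepTools and the build GRCm38, and versions are not given in the sources used here. Peaks were called by the authors for each sample. The deposited lists give for each peak a fold (ratio of the summit pileup to the local background), a −log10 p and −log10 q, an integer score and, as other values, positions and the summit offset. The fold was used here, with −log10 p and −log10 q in alternatives, and the score was not used. The files hold no read counts, so depth is unknown and no intervals from counting can be given.

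Merging at 1 bp, percentiles and rank scores were computed in Python 3.11.15 (pandas 2.3.3, numpy 2.4.6, scipy 1.17.1), and scores were compared in limma 3.58.1 (R 4.3.3) over all 68278 shared regions, or over 2900 genes, with Benjamini-Hochberg adjustment and a threshold of 0.05. The code was tested on simulated data. Single values per sample were compared with exact two-sided permutation tests. Gene positions, start sites, promoter windows and microRNAs came from RefSeq (GRCm38.p6). Chromosome X was not included.

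Named by rule were the 12 genes with the most members, the 8 densest genes with at least 8 members and the 3 highest members. In each direction of each comparison, the 4 members with the largest called difference were named, among those without overlap between the groups compared. The 3 genes with the largest called mean difference were named for the same comparisons and directions. Some items that meet this rule are not reported here. Members and gene lists were chosen with earlier results of these data known, and the start window and crowding analyses were added after the data were seen. Alternatives were other distances from gene ends (3 and 10 kb), merging at 100 bp, peaks with −log10 q of at least 5, lists of equal length, other rankings, replicate blocks and leaving out each sample.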

Additional observations from a re-analysis of the deposited data

How the results depend on the processing

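The number of members was within 1.5 times of 27043 under every alternative, from 19901 with peaks of −log10 q of at least 5 to 28651 at 3 kb from gene ends. Counts of calls moved more. With peaks of −log10 q of at least 5, 349 members were higher with Ezh2 than GFP, 984 lower with Ezh2-Y726D than GFP, and 1437 higher with Ezh2 than Ezh2-Y726D. Ranking among all peaks of a list gave 226 higher and 387 lower members in Ezh2 against GFP, 14 and 26 genes there, and 70 and 55 genes in Ezh2-Y726D against GFP. Ranking by −log10 p gave 92 and 114 genes, and 190 and 252 genes, in these comparisons. The cause of these shifts was not tested.

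Samples with the same number did not deviate together (correlations of -0.0115 to 0.0388 by title and -0.00515 to 0.0388 by peak name), so numbers were not taken to pair them. With a replicate block by peak-name number, 301 members were higher and 519 lower in Ezh2 against GFP, 520 and 829 in Ezh2-Y726D against GFP, and genes numbered 22 and 34, and 56 and 44. A block by title number gave 337 higher members and 14 and 24 genes in Ezh2 against GFP. Among the named calls, that of Mknk1 was lost under both blocks (limma adjusted p = 0.0549 by title and 0.0625 by peak name), and those of Lpin2 (0.0618) and Usp33 (0.0540) under the block by title.

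Leaving out 1 sample gave 148 to 380 higher and 286 to 639 lower members in Ezh2 against GFP, 87 to 946 and 319 to 1431 in Ezh2-Y726D against GFP, and 861 to 2092 and 558 to 1829 in Ezh2 against Ezh2-Y726D. Genes called ran from 9 to 31 and 17 to 49, from 13 to 98 and 12 to 91, and from 77 to 250 and 76 to 259 in the same order. In Ezh2 against GFP every GFP and Ezh2 library moved the count of higher members by over 1.5 times. In Ezh2-Y726D against GFP, 575 and 854 members were left without GFP replicate 1, 550 and 866 without GFP replicate 2, 87 and 319 without Ezh2-Y726D replicate 1, and 191 and 608 without Ezh2-Y726D replicate 2. In Ezh2 against Ezh2-Y726D, 1449 higher members were left without Ezh2 replicate 1, and 1054 higher and 634 lower without Ezh2-Y726D replicate 2. Fits without an Ezh2-Y726D sample assume that the lone sample varies like the other groups.

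The share of peaks inside gene bodies changed sign with lists of equal length (-0.0111 percentage points in Ezh2 against GFP and -0.112 in Ezh2 against Ezh2-Y726D), beyond 10 kb from gene ends (-0.589 in Ezh2 against Ezh2-Y726D) and without Ezh2-Y726D replicate 1 (-0.0666). Without 1 sample it ran from 0.410 to 0.975, from 0.159 to 0.757 and from -0.0666 to 0.502. The median rank score of Ezh2-Y726D against GFP changed sign beyond 10 kb (0.00131), and without 1 sample the 3 differences ran from 0.00411 to 0.00907, from -0.00956 to -0.00173 and from 0.00855 to 0.0164. Of the named calls, 21 of 24 for regions, 14 of 18 for genes and 6 of 6 for start regions were kept when each sample was left out and under the other rankings, both blocks and limma-trend, and 0 changed sign. Named calls were not recomputed at other distances, with other merging or with shortened lists.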
